A study of Homo sapiens with 6 samples.

Results

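The genes described here belong to the amino acid response driven by the transcription factor ATF4, together with the cytosolic aminoacyl-tRNA synthetases. They were chosen as a fixed list of 42 genes by name: 20 cytosolic tRNA synthetases, 9 enzymes of amino acid synthesis and one-carbon metabolism, 9 stress transcription factors and effectors, and 4 amino acid transporters. Of these, 41 were listed in at least 1 of the deposited count tables and 40 in both, against 13289 and 12301 genes in all. CHAC1 was listed for DMSO only. VARS, the valyl-tRNA synthetase, was in neither table and is not analysed here.

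Gene counts came from RNA-seq of NB4, a line from human acute promyelocytic leukemia whose cells differentiate along the granulocyte path when given all-trans retinoic acid (ATRA). A control construct or 1 of 2 short hairpin RNAs, shRNA1 and shRNA2, had been introduced. Both hairpins target SMARCD2, which encodes a component of SWI/SNF (BAF) chromatin remodellers. They are called hairpin 1 and hairpin 2 here. Each construct was grown with ATRA at 1 µM (labelled as differentiated cells) or with the vehicle DMSO (labelled undifferentiated), which gave 6 libraries: in either treatment 1 from the control and 1 from each hairpin. The sources used here do not say how long the cells were treated. The labels do not say whether libraries came from separate cultures, so p-values measure only the spread between these libraries, which may be technical. All groups are of 1 cell line, and the hairpins are the only replication of the knockdown.

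Library totals ran from 29291209 to 58099733 counts. The control libraries were the smallest, with 29291209 in DMSO and 29521141 in ATRA, and the knockdown libraries held 41846630 or more. SMARCD2 stood at 95.5, 39.0 and 25.7 CPM (counts scaled to library size with TMM) in the control, hairpin 1 and hairpin 2 libraries in DMSO, and at 122, 64.2 and 35.6 CPM in ATRA. It was lower in all 4 knockdown libraries than in their control, and lower with hairpin 2 than with hairpin 1 (log2 fold change -0.73, SE 0.074, adjusted p = 3e-06 in edgeR's quasi-likelihood test). ITGAM, an integrin of maturing granulocytes, was 25.3 to 38.3 CPM in DMSO and 455 to 477 CPM in ATRA. MPO, the peroxidase of promyelocyte granules, was 9866 to 10044 CPM in DMSO and 4298 to 5764 CPM in ATRA. The haemoglobin genes HBB, HBA1 and HBG1 were not analysed here.

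When uncharged tRNA or another stress is sensed, eIF2 kinases phosphorylate the translation factor eIF2, most protein synthesis slows, and the ATF4 mRNA is translated more efficiently. The ATF4 protein, often paired with a C/EBP partner, then binds composite C/EBP-ATF elements and raises genes that import amino acids, synthesize serine, glycine, asparagine and proline, and charge tRNAs. DDIT3 (CHOP), ATF5, TRIB3, CHAC1 and PPP1R15A (GADD34) act downstream, and TRIB3 and PPP1R15A are known to feed back on the response. ATF4 is thus regulated in large part at translation, which mRNA counts do not measure.

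Promoter sequences were examined because ATF4 is known to act through this element. RefSeq windows of GRCh38.p14, from 250 bases before to 50 bases after each annotated start, were held for 33 of the 42 genes. There was no entry for DARS, LARS, VARS, YARS, PSPH, SHMT2, PYCR1, EIF4EBP1 and SLC7A11. The core of the composite element, TGATGNAA (TTNCATCA on the other strand), was searched on both strands. It was found in 10 of the 33 genes (30.3%), against 1217 of 27305 genes (4.46%) with windows of the same length. The list was chosen by name around the ATF4 response, so this difference in share is not an independent result. The 10 were 7 synthetases (AARS, CARS, GARS, IARS, MARS, NARS and TARS), ASNS, CHAC1 and SLC3A2. The palindromic cyclic AMP response element TGACGTCA was found in PPP1R15A alone of the 33 (3.03%, against 2.25% of all genes). A match describes letters and does not show binding. Windows of 30 bases are shown for genes that the results below turn on, 5′ to 3′ on the strand of the gene, with the match in capitals:

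AARS: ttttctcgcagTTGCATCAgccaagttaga
MARS: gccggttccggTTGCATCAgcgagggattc
TARS: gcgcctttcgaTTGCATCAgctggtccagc
IARS: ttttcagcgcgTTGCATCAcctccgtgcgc
NARS: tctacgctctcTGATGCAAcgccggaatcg
ASNS: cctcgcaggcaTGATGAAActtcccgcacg
CHAC1: ctcccctgccgTTGCATCActcctgccagg
PPP1R15A: gcctctcttcgTGACGTCAgcacgccgggc

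The matches lie on both sides of the annotated start. The AARS window is chr16:70289675-70289704, with the match beginning 187 bases before the start of a gene on the minus strand. The MARS window is chr12:57488053-57488082 on the plus strand, and its match begins 4 bases before the start. The TARS window is chr5:33440956-33440985 on the plus strand, and its match begins 3 bases into the transcript. The IARS window lies at chr9:92293692-92293721 on the minus strand, 13 bases before the start by the same measure, and the NARS window at chr18:57621804-57621833 on the minus strand, 15 bases into the transcript. The remaining windows are chr7:97872458-97872487 for ASNS (minus strand, match 68 bases before the start), chr15:40953251-40953280 for CHAC1 (plus strand, 209 bases before) and chr19:48872352-48872381 for PPP1R15A (plus strand, 58 bases before). The synthetases AARS, MARS, TARS and IARS share the same 8 letters, TTGCATCA, and NARS holds their reverse complement.

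Under ATRA the response did not move as 1 block. Tryptophanyl-tRNA synthetase, the cystine transporter subunit SLC7A11, DDIT3 and ATF4 itself were higher in all 3 ATRA libraries than in all 3 DMSO libraries, while the proline, serine and asparagine synthesis enzymes, the leucine transporter SLC7A5, ATF5 and 10 of 19 synthetases were lower. Of the 40 genes, 11 rose, 23 fell and 6 did not pass the threshold of 0.05 on the adjusted p of edgeR's quasi-likelihood test, fitted over all 12301 genes with knockdown state and treatment as terms. In the same fit, 74.0% of all genes were called, 36.2% higher and 37.8% lower, so a call by itself is the usual outcome here. The median log2 fold change of the 40 was -0.26, against -0.013 over all genes. ATRA and DMSO libraries did not overlap for 34 of the 40 (85.0%), against 77.1% of all genes. These are bulk RNA measurements of 1 cell line, and fewer cells in a given state cannot be told apart from less RNA per cell.

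Scaling matters for the smallest of these changes. With total counts in place of TMM, the median of all genes was -0.14, a shift of -0.13, and the calls over all genes were 3637 higher and 5722 lower instead of 4450 and 4650. The 40 genes then gave 8 higher and 25 lower. The sign turned for EPRS (from 0.06 to -0.07), RARS (from 0.08 to -0.05), SLC38A2 (from 0.07 to -0.06) and MTHFD2 (from 0.12 to -0.0079), and MTHFD2 was the only one of these 4 called with TMM.

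**Figure D1:**
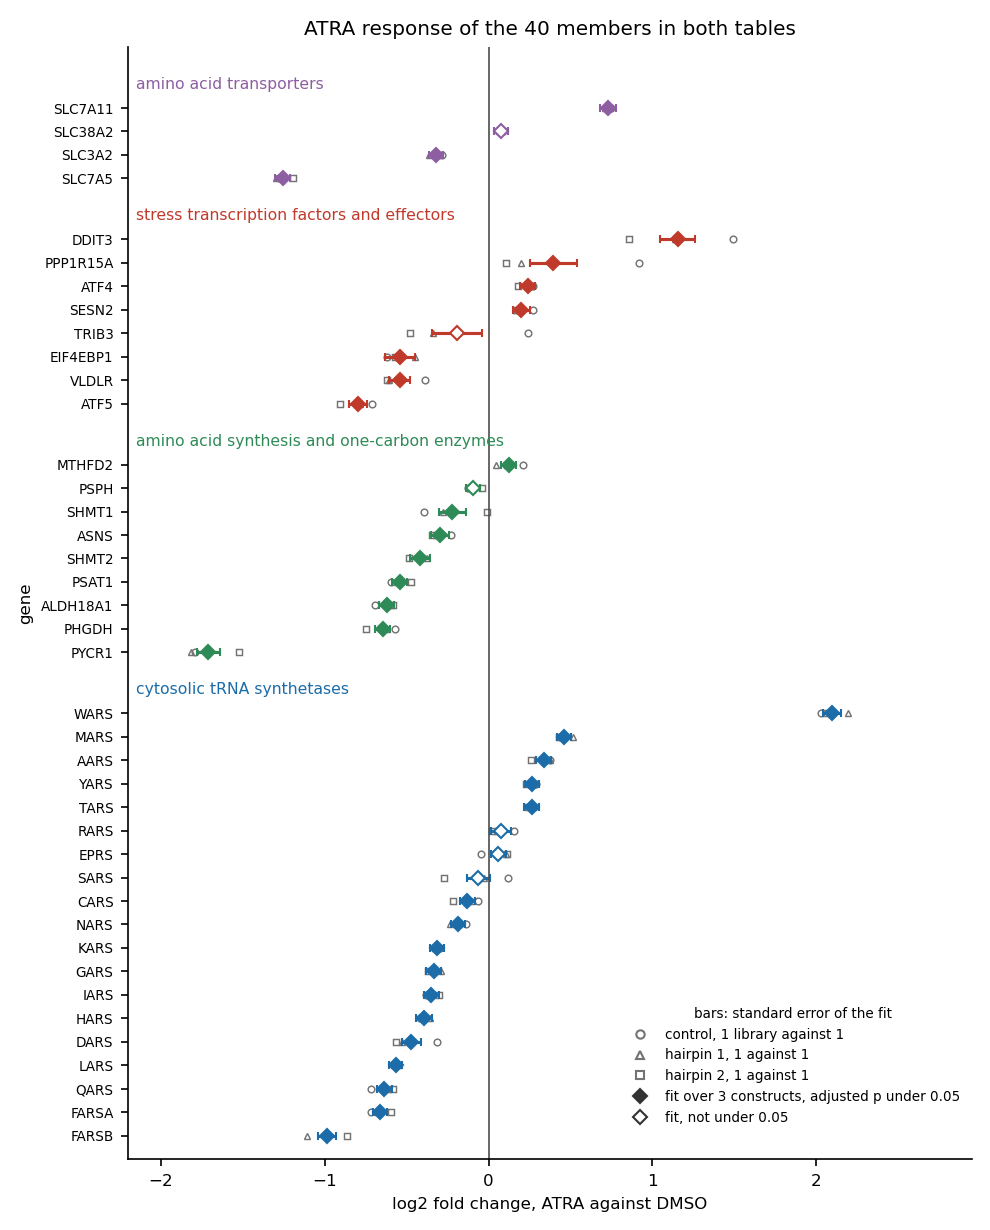
Log2 fold change of ATRA against DMSO for the 40 genes in both tables, grouped by role. Diamonds are the fit over the 3 constructs with its standard error, filled where the adjusted p was under 0.05, and grey symbols are the ratio of 1 ATRA to 1 DMSO library within each construct. WARS lies far to the right at 2.09 and PYCR1 far to the left at -1.71, and for TRIB3 and PPP1R15A the control symbol stands apart from the hairpin symbols.

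Among the cytosolic synthetases, which attach each amino acid to its tRNA, 5 of 19 rose, 11 fell and 3 did not pass, with a median of -0.19 (-0.32 with total counts, 5 higher and 12 lower). WARS, which charges tryptophan and is also known as an interferon-induced gene, had the widest response. Its levels were 155, 133 and 131 CPM in the control, hairpin 1 and hairpin 2 libraries in DMSO and 634, 608 and 544 CPM in ATRA. Every ATRA library was thus above every DMSO library by a wide margin, a 4.27-fold rise (log2 fold change 2.09, SE 0.056, adjusted p = 1.2e-08). WARS had a promoter entry without the composite core.

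The other 4 that rose did so by much less. MARS, the methionyl enzyme, had 318, 290.3 and 293 CPM in DMSO and 431, 415 and 396 CPM in ATRA. AARS, the alanyl enzyme, had 354, 335 and 342 CPM in DMSO and 459.7, 433 and 409.6 CPM in ATRA. Neither overlapped between treatments, and their log2 fold changes were 0.46 (SE 0.043) and 0.34 (SE 0.045), with adjusted p = 1.6e-05 and 0.00015. The tyrosyl enzyme YARS went from 275 ± 2.32 CPM (SD, n = 3) to 331 ± 7.23 CPM, and the threonyl enzyme TARS from 236 ± 8.19 to 284 ± 13.9 CPM. Their log2 fold changes were 0.26 and 0.26. MARS, AARS and TARS are the 3 of these 5 synthetases whose windows hold the composite core.

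The phenylalanyl enzyme is built from 2 subunits, and both fell. FARSB, the beta subunit, had 124, 127 and 112 CPM in DMSO and 63.0, 59.1 and 61.5 CPM in ATRA. FARSA, the alpha subunit, had 142, 144 and 139.9 CPM in DMSO and 86.8, 89.8 and 92.6 CPM in ATRA. The 2 subunits thus went down in every construct, FARSB by 1.98-fold (log2 fold change -0.99, SE 0.058, adjusted p = 9e-07) and FARSA by 1.58-fold (log2 fold change -0.66, SE 0.044, adjusted p = 2e-06).

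The glutaminyl enzyme QARS had 233, 227 and 218 CPM in DMSO and 142, 149 and 145 CPM in ATRA (log2 fold change -0.64, SE 0.047, adjusted p = 3.5e-06). The leucyl enzyme LARS had 536, 530.3 and 530.4 CPM in DMSO and 361, 355 and 361 CPM in ATRA (log2 fold change -0.57, SE 0.041, adjusted p = 3.1e-06). QARS and LARS are known members of the multisynthetase complex, as are DARS, EPRS, IARS, KARS, MARS and RARS. The members of that complex did not move together: QARS, LARS, DARS (log2 fold change -0.47), IARS (-0.35) and KARS (-0.32) fell, MARS rose, and EPRS and RARS did not pass.

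The remaining synthetases fell by smaller amounts or did not pass. HARS for histidine went from 95.6 ± 3.84 to 72.7 ± 1.93 CPM (log2 fold change -0.39), and NARS for asparagine from 214 ± 7.09 to 189 ± 3.44 CPM (-0.19). GARS for glycine had a log2 fold change of -0.33, which was called. CARS for cysteine had the smallest called decrease, -0.13 (SE 0.047) with adjusted p = 0.033, and its libraries overlapped between treatments. That call was lost when any 1 knockdown library was left out, with values from -0.14 to -0.10, and with DESeq2. The serine enzyme SARS had 91.6, 84.3 and 93.8 CPM in DMSO and 99.5, 82.8 and 77.5 CPM in ATRA, with the control higher in ATRA and both hairpin libraries lower, and its fit over the constructs was -0.06 (SE 0.071) with adjusted p = 0.45. EPRS (0.06, adjusted p = 0.28) and RARS (0.08, adjusted p = 0.31) had signs that turned with the scaling.

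The biosynthetic enzymes moved largely in 1 direction. Of 9, 7 fell, 1 rose and 1 did not pass, with a median of -0.42 (-0.55 with total counts, 8 lower and 0 higher). PYCR1, which makes proline in the mitochondrion, had 70.5, 72.2 and 64.2 CPM in DMSO and 20.4, 20.5 and 22.3 CPM in ATRA. All ATRA libraries were below all DMSO libraries, a 3.27-fold decrease (log2 fold change -1.71, SE 0.069, adjusted p = 1e-07). ALDH18A1, which catalyses the first steps from glutamate toward proline, had 135, 133 and 131 CPM in DMSO and 83.4, 87.9 and 87.5 CPM in ATRA. It fell by 1.54-fold (log2 fold change -0.62, SE 0.044, adjusted p = 3e-06).

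The first enzyme of serine synthesis, PHGDH, had 198, 189.6 and 197 CPM in DMSO and 133, 123 and 118 CPM in ATRA. PSAT1, the next enzyme of that pathway, had 179, 166 and 166 CPM in DMSO and 119, 113 and 119 CPM in ATRA. Both fell in every construct, with log2 fold changes of -0.65 (SE 0.047) and -0.54 (SE 0.045) and adjusted p = 3.5e-06 and 7.8e-06. PSPH, which completes the pathway, did not pass (-0.10, SE 0.045, adjusted p = 0.085). It went from 1219 ± 37.9 to 1141 ± 28.8 CPM, and its libraries did not overlap. PSPH has a closely similar pseudogene copy, and the sources used here do not say how reads that fit both were counted, so its level is uncertain.

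SHMT2, the mitochondrial enzyme that turns serine into glycine and feeds one-carbon units to folate, had 406, 368 and 345 CPM in DMSO and 306, 284 and 247 CPM in ATRA. It was lower in ATRA with every construct (log2 fold change -0.42, SE 0.06, adjusted p = 0.00024), and in both treatments its level was highest in the control and lowest with hairpin 2. Its cytosolic counterpart SHMT1 had 51.8, 52.5 and 52.0 CPM in DMSO and 39.3, 43.2 and 51.6 CPM in ATRA. The hairpin 2 library in ATRA stood at the DMSO level, and the call for SHMT1 (-0.22, SE 0.081, adjusted p = 0.035) was lost for 5 of the 6 libraries left out in turn, with values from -0.24 to -0.14. MTHFD2, the next mitochondrial folate enzyme, was 389 ± 8.24 CPM in DMSO and 424 ± 15.1 CPM in ATRA, a call of 0.12 (adjusted p = 0.041) that turned to -0.0079 with total counts and was lost for 5 of the 6 libraries left out in turn, with values from 0.08 to 0.15. ASNS, which makes asparagine and is a standard ATF4 target, had 174, 166 and 154 CPM in DMSO and 149, 133 and 121 CPM in ATRA. Its ATRA libraries were all below its DMSO libraries (log2 fold change -0.30, SE 0.055, adjusted p = 0.0011).

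The stress factors and effectors were divided, with 4 of 8 higher, 3 lower and 1 that did not pass, and a median of 0.0047 (-0.13 with total counts, 2 higher and 3 lower). ATF4 mRNA was 392, 389 and 389 CPM in DMSO and 474, 464 and 441 CPM in ATRA. The DMSO libraries were nearly equal and all 3 ATRA libraries were above them, a 1.18-fold rise (log2 fold change 0.24, SE 0.044, adjusted p = 0.0011). DDIT3, which encodes CHOP, had 21.4, 23.4 and 24.7 CPM in DMSO and 60.0, 51.4 and 44.6 CPM in ATRA. It rose 2.23-fold over the constructs (log2 fold change 1.15, SE 0.11, adjusted p = 1.4e-05), most in the control and least with hairpin 2.

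ATF5, a bZIP factor that ATF4 and CHOP are known to induce, went the other way. It stood at 128, 90.5 and 88.9 CPM in DMSO and at 78.3, 52.5 and 47.5 CPM in ATRA. Each construct was lower in ATRA than in DMSO, and the hairpin libraries were below the control in both treatments (ATRA against DMSO -0.80, SE 0.056, adjusted p = 2.7e-06). PPP1R15A, the phosphatase subunit that reverses eIF2 phosphorylation, had 35.0, 44.7 and 41.6 CPM in DMSO and 66.0, 51.2 and 44.8 CPM in ATRA. Its rise lay mostly in the control: the log2 ratio of ATRA to DMSO was 0.92 there, 0.20 with hairpin 1 and 0.11 with hairpin 2. The call over all constructs (0.40, SE 0.14, adjusted p = 0.031) fell to 0.16 and was lost without the control library in DMSO, and to 0.15 without that in ATRA. It was also lost with DESeq2, with total counts and without hairpin 2 in DMSO or hairpin 1 in ATRA. With a control library left out, only the knockdown libraries estimate the response.

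TRIB3, a pseudokinase known to restrain ATF4, had 175, 183 and 151 CPM in DMSO and 206, 144 and 108 CPM in ATRA. Its treatments overlapped, with the control higher in ATRA and both hairpin libraries lower, and the fit over all constructs did not pass (-0.19, SE 0.15, adjusted p = 0.28). With either control library left out it was -0.40. Only the knockdown libraries then estimate the response, so this is the same contrast as in the knockdown cells alone, given below. EIF4EBP1, the translation repressor that MTORC1 inactivates, had 79.2, 75.0 and 65.2 CPM in DMSO and 51.6, 55.0 and 43.9 CPM in ATRA, with log2 fold change -0.54 (SE 0.091) and adjusted p = 0.00065. The lipoprotein receptor VLDLR, a known ATF4 target, had 85.3, 87.9 and 95.0 CPM in DMSO and 65.0, 57.7 and 61.7 CPM in ATRA (-0.54, SE 0.064, adjusted p = 7.1e-05). Both were lower in ATRA in every construct. SESN2, a leucine sensor upstream of MTORC1, went from 38.9 ± 1.27 to 44.8 ± 3.38 CPM, a rise of 0.20 (adjusted p = 0.0074) that was not called with total counts.

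The 4 transporters also divided, with 1 higher, 2 lower and 1 that did not pass. SLC7A11, the light chain that imports cystine in exchange for glutamate, had 41.1, 40.1 and 38.1 CPM in DMSO and 69.0, 65.5 and 63.4 CPM in ATRA. SLC7A5 (LAT1), the light chain that imports leucine and other large neutral amino acids, had 690.4, 718 and 685 CPM in DMSO and 284, 292 and 299 CPM in ATRA. Both chains pair with the heavy chain SLC3A2 (CD98), which had 241, 248 and 239.9 CPM in DMSO and 197, 193 and 193 CPM in ATRA. The cystine chain thus rose 1.66-fold (log2 fold change 0.73, SE 0.049, adjusted p = 2.3e-06), while the leucine chain fell 2.39-fold (-1.26, SE 0.044, adjusted p = 4.5e-08) and the shared heavy chain fell 1.25-fold (-0.32, SE 0.042, adjusted p = 0.00013). The spread between constructs was small beside these differences for all 3. SLC38A2, the sodium-coupled importer that amino acid shortage is known to induce, was 473 ± 16.8 CPM in DMSO and 498 ± 14.9 CPM in ATRA, which did not pass (adjusted p = 0.15) and changed sign with the scaling.

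**Figure D2:**
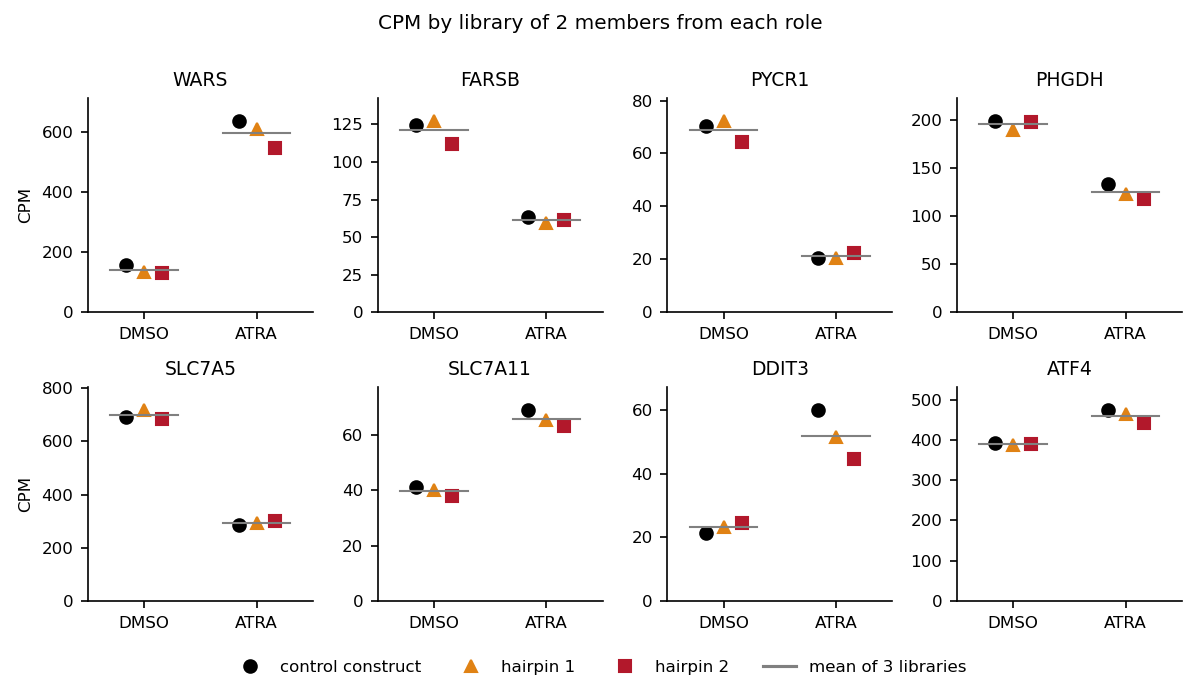
CPM in each of the 6 libraries for 2 genes of each role, with the mean of the 3 libraries of a treatment as a line and the vertical axis from 0. DMSO and ATRA libraries do not overlap in any of the 8 panels, and DDIT3 in ATRA runs from 60.0 in the control down to 44.6 with hairpin 2.

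The ATRA calls did not all go 1 way among genes with the composite core. Of the 9 genes with the core in a window and counts in both tables, 3 rose (AARS, MARS and TARS) and 6 fell. Of the 23 with an entry without the core, 6 rose, 12 fell and 5 did not pass, and of the 8 with no entry 2 rose, 5 fell and 1 did not pass. These counts are descriptions with no test.

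Genes of neighbouring pathways give the setting. All 4 genes of the multisynthetase scaffold and tRNA export fell (median -0.37), with a log2 fold change of -0.55 for the exporter XPOT and -0.41 for the scaffold protein EEF1E1. Of 16 mitochondrial synthetases 3 rose and 10 fell (median -0.31), among them CARS2 at 0.88 and RARS2 at 0.28, NARS2 at -1.02 and PARS2 at -0.92. The folate and other amino acid enzymes gave 7 higher and 17 lower of 27 (median -0.38). Among those called were OAT, the ornithine aminotransferase (2.33), and on the other side ASS1, the argininosuccinate synthase (-4.12), and the glycine cleavage protein GCSH (-1.67).

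Other known ATF4 and CHOP targets also went both ways, with 6 of 19 higher, 8 lower and a median of -0.19. CEBPB, a C/EBP partner of ATF4 that is also a myeloid transcription factor, rose by 2.79 and the death receptor TNFRSF10B by 1.06, while the transaminase GPT2 (-2.32) and the cysteine-synthesis enzyme CTH (-1.96) fell. Of 14 genes around eIF2, 2 rose, the kinase EIF2AK2 (1.64), which is interferon-induced, and the phosphatase subunit PPP1R15B (0.50), and 9 fell, led by EIF2B3 (-0.70) and EIF2S3 (-0.56). The other amino acid transporters gave 6 higher and 9 lower of 19 (median -0.07), from SLC7A8 (3.12) and SLC43A2 (1.25) to SLC43A1 (-1.13) and SLC1A4 (-1.38). The MTORC1 amino acid sensing list had a positive median (0.19, and 0.06 with total counts): 10 of 20 rose, led by LAMTOR1 (1.39) and LAMTOR4 (1.27), and 4 fell, led by WDR59 (-0.86) and NPRL2 (-0.60).

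Taken within each state, the ATRA response gave 11 of the 40 genes higher and 20 lower in the control alone (of all genes 59.0% were called, 29.3% higher and 29.6% lower) and 9 higher and 23 lower in the knockdown cells alone (69.9% called, 34.6% higher and 35.4% lower). The control contrast sets 1 library against 1, with the spread taken from the hairpin pairs. ASNS, NARS and CARS, called lower over all constructs, did not pass in the control alone, and TRIB3 was called lower in the knockdown cells alone (-0.40, adjusted p = 0.03) but not in the control (0.24, adjusted p = 0.32).

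The knockdown comparisons ask whether loss of SMARCD2 moved these genes. SMARCD2 itself had log2 fold changes of -1.55 (SE 0.32) in DMSO and -1.29 (SE 0.31) in ATRA. It did not pass in edgeR's test within either treatment, so a gene that did not pass there can still differ. ATF5 was below its control in all 4 knockdown libraries: hairpin 1 and hairpin 2 held 70.6% and 69.4% of the control level in DMSO and 67.1% and 60.7% in ATRA. Its log2 fold change over both treatments was -0.58 (SE 0.058) with adjusted p = 0.091, the smallest adjusted p of all 12301 genes in that fit, and still not under 0.05. It was called with DESeq2, with total counts in place of TMM, from run 2 of each library alone and with the hairpin as a block (adjusted p = 0.031). No gene passed in edgeR's quasi-likelihood test over both treatments (0.0% of all genes called), with 1003 (8.15%) at an unadjusted p under 0.05, while DESeq2 called 20 higher and 28 lower (0.39%) and the blocked fit 8 higher and 2 lower (0.0813%). None of the 40 passed in edgeR's test, with 8 at an unadjusted p under 0.05 and 1, ATF5, called with DESeq2 and with the block.

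The mix of sequencing runs and the library totals moved with the knockdown label. Run 1 supplied 54.6% and 53.1% of the counts in the control libraries but 70.6% to 80.7% in the knockdown libraries, and each treatment has 1 control library that both hairpins share, so a ratio to it moves for both hairpins at once. For ATF5 the log2 fold change over both treatments was -0.60 from run 2 alone and -0.58 from both runs. The sum of both runs includes run 2, so these values are not independent. From run 1 alone, 0 of the 40 genes were called over both treatments, in DMSO or in ATRA, and from run 2 alone ATF5 was called over both treatments and in ATRA.

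In DMSO, 0 of the 40 genes passed (0.0% of all genes called), with 3 at an unadjusted p under 0.05 (7.06% of all genes). ATF5 alone of the 40 was called with DESeq2, which called 0.309% of all genes, and with the hairpin block, which called 0.943%. In the unblocked fit ATF5 stood below the control at -0.51 (SE 0.076), with adjusted p = 0.18. PPP1R15A was above the control with both hairpins, at 0.30 (SE 0.10), adjusted p = 0.66, and WARS below it with both, at -0.24 (SE 0.08), adjusted p = 0.66. CHAC1, a glutathione-degrading enzyme and CHOP target listed for DMSO only, had 7 counts in the control, 42 for hairpin 1 and 46 for hairpin 2, or 0.238, 0.729 and 1.10 CPM. Both hairpin libraries were above the control at this low depth, and the fit within DMSO gave a log2 fold change of 1.91 (SE 0.66, adjusted p = 0.78).

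In ATRA, again 0 of the 40 passed (0.00813% of all genes called), with 10 at an unadjusted p under 0.05 (10.8% of all genes). DESeq2 called 1, ATF5, among 18 higher and 36 lower of all genes (0.439%). With the hairpin as a block, a fit with 1 residual degree of freedom, 4 were called lower (ATF5, TRIB3, PPP1R15A and SARS), among 149 higher and 199 lower of all genes (2.83%). The adjusted p in that fit was 4.8e-05 for TRIB3, 0.00019 for ATF5 and 0.0057 for PPP1R15A. Without the block ATF5 had a log2 fold change of -0.65 (SE 0.078), with adjusted p = 0.12. TRIB3 held 69.9% of the control level with hairpin 1 and 52.3% with hairpin 2 (-0.71, SE 0.16, adjusted p = 0.31). In DMSO the same hairpins had stood at 105% and 86.4%. PPP1R15A was 77.5% and 67.9% of the control (-0.46, adjusted p = 0.29), DDIT3 85.7% and 74.3% (-0.32, adjusted p = 0.38), and SARS 83.2% and 77.9% (-0.31, adjusted p = 0.34). In each of these 5 the control was highest and hairpin 2 lowest. In the same libraries MPO was 4298, 5251 and 5764 CPM with a log2 fold change of 0.36 (SE 0.078) that did not pass (adjusted p = 0.29). Over the 3 ATRA libraries the summed level of 6 of 7 listed promyelocyte markers ran from 4878 to 6630 CPM, and that of 7 of 7 granulocytic maturation markers from 7962 to 8932 CPM. For knockdown against control in ATRA, the 6 promyelocyte markers were all above 0, from 0.14 for CD33 to 0.71 for PRTN3. The 7 maturation markers went both ways, from -0.36 for NCF1 to 0.06 for CYBB. None of these markers passed in edgeR's test without the block. The part of maturation in the knockdown values was not tested.

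The 8 stress factors had a median of -0.25 for knockdown against control in ATRA, with 0 of 8 above 0 in the fit, against 0.0044 over all genes. The synthetases had a median of -0.06, the biosynthetic enzymes -0.03 and the transporters 0.01. In DMSO the 4 medians were -0.04, -0.06, -0.04 and 0.02 for stress factors, synthetases, biosynthetic enzymes and transporters. None of the genes passed in edgeR's quasi-likelihood test of the summed runs without the block, while DESeq2 called ATF5 in both treatments. These medians are descriptions.

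The authors' deposited table for DMSO gave ATF5 alone of the 41 listed genes an adjusted p under 0.05, among 146 genes of 12752 (1.14%). In the authors' deposited table for ATRA, 5 genes of the group had one (ATF5, TRIB3, PPP1R15A, DDIT3 and SARS), among 535 of 12838 (4.17%). The fold change for ATF5 in the authors' deposited tables was -0.46 in DMSO and -0.58 in ATRA on the log2 scale. For SMARCD2 the authors gave -0.96 in DMSO and -0.40 in ATRA, where the fits here gave -1.55 and -1.29. Sizes are thus not directly comparable between the authors' values and those given here. The authors' tables hold normalized values for each of the 2 sequencing runs, so their tests may have counted runs as samples.

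**Figure D3:**
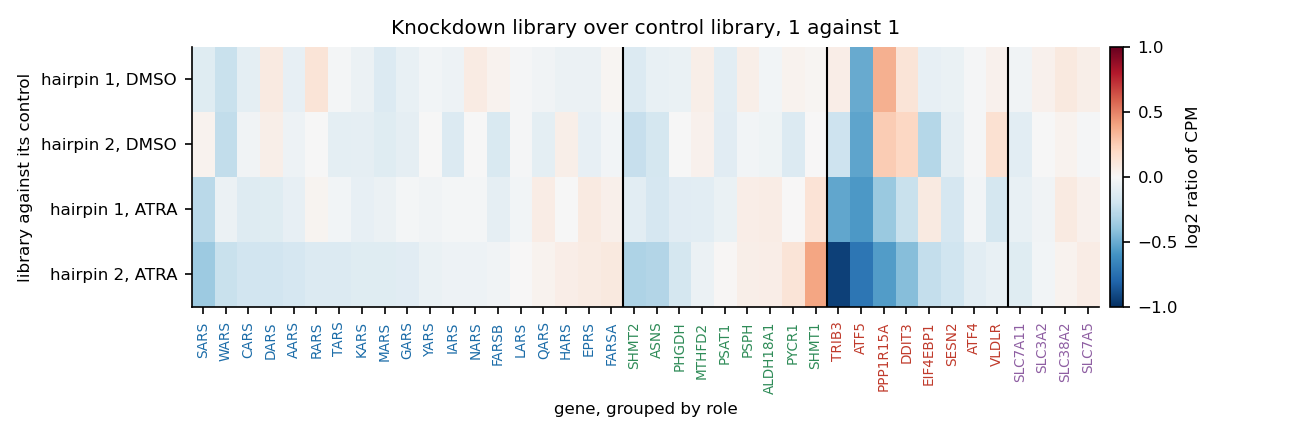
Log2 ratio of CPM in each knockdown library to the control library of the same treatment, for the 40 genes in both tables, ordered within each role by the hairpin 2 ratio in ATRA. Blue is below the control and red above, on a scale from -1 to 1. ATF5 is blue in all 4 rows, and TRIB3, PPP1R15A and DDIT3 are blue in both ATRA rows.

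Counted library by library, 16 of the 40 genes were below their control in 4 of 4 knockdown libraries (against 14.2% of all genes) and 2, SHMT1 and SLC38A2, were above it in 4 of 4 (against 14.6%). The 16 were the synthetases AARS, CARS, GARS, IARS, KARS, MARS, TARS, WARS and YARS, the enzymes ASNS, PHGDH and SHMT2, the factors ATF4, ATF5 and SESN2, and SLC7A11. Most of these differences were small: ATF4 was -0.013 and -0.012 in DMSO and -0.03 and -0.10 in ATRA for hairpin 1 and hairpin 2 on the log2 scale. ASNS held 95.1% and 88.4% of the control in DMSO and 89.2% and 81.5% in ATRA. Of the 9 genes with the composite core and counts in both tables, 7 were among the 16, as were 6 of the 23 with an entry without it and 3 of the 8 with no entry. Most genes with the core are synthetases, so the core cannot be told apart from the role. These counts are descriptions with no test, and no share over all genes with the core is given.

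Within ATRA alone 26 of the 40 were below the control with both hairpins (65.0%, against 37.4% of all genes), and within DMSO 22 (55.0%, against 34.9%). Above the control with both hairpins were 9 in ATRA (22.5%, against 39.2%) and 7 in DMSO (17.5%, against 35.0%). The order control, hairpin 1, hairpin 2 from high to low was seen for 22 in ATRA (55.0%, against 24.9%) and 15 in DMSO (37.5%, against 18.5%). SMARCD2 itself has that order in both treatments. A relation of these counts to the SMARCD2 level was not tested. With 1 library per hairpin in each treatment, it cannot be told apart from other differences between hairpins or libraries. Within a treatment 1 control library sets the sign for both hairpins of every gene, so these counts are not independent observations.

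The difference in ATRA response between knockdown and control was tested directly as an interaction. None of the 40 passed (0.0488% of all genes called), with 4 at an unadjusted p under 0.05 (7.96% of all genes). DESeq2 called 1, PPP1R15A, among 1 higher and 47 lower of all genes (0.39%). With the hairpin block PPP1R15A and TRIB3 were called lower (adjusted p = 0.0034 for both), among 16 higher and 113 lower of all genes (1.05%). Without the block PPP1R15A had the lowest adjusted p among them, at -0.76 (SE 0.14) with adjusted p = 0.24. DDIT3 (-0.49, SE 0.15, adjusted p = 0.55), TRIB3 (-0.64, SE 0.24, adjusted p = 0.59) and DARS (-0.23, SE 0.091, adjusted p = 0.6) were the others at an unadjusted p under 0.05. For PPP1R15A and DDIT3 both hairpin libraries were above the control in DMSO and below it in ATRA, a pattern that DARS, MTHFD2 and VLDLR also had, 5 of the 40 in all (12.5%, against 12.5% of all genes).

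**Figure D4:**
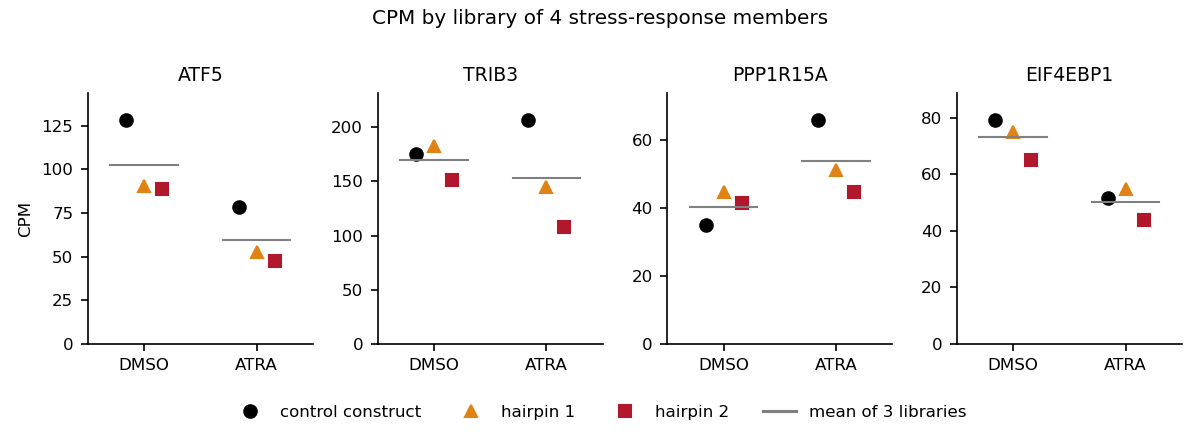
CPM in each of the 6 libraries for ATF5, TRIB3, PPP1R15A and EIF4EBP1, with the mean of the 3 libraries of a treatment as a line and the vertical axis from 0. ATF5 shows the control above both hairpins in either treatment, PPP1R15A shows the control lowest in DMSO and highest in ATRA, and TRIB3 and EIF4EBP1 show hairpin 2 below hairpin 1.

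The hairpins also differed from each other, in a test with 1 residual degree of freedom. In a fit of the 4 knockdown libraries that included treatment, 2 of the 40 genes were lower with hairpin 2 than with hairpin 1 and 0 were higher, where 2.03% of all genes were called, 0.732% lower and 1.3% higher. TRIB3 had a log2 fold change of -0.34 (SE 0.058) with adjusted p = 0.0013, from log2 differences of -0.28 in DMSO and -0.42 in ATRA. EIF4EBP1 had -0.26 (SE 0.064) with adjusted p = 0.032, from -0.20 in DMSO and -0.32 in ATRA. The TRIB3 call held with total counts, DESeq2, limma-voom and either run alone, and the EIF4EBP1 call was lost with total counts, DESeq2 and run 2 alone. ATF5 did not pass between hairpins, with log2 differences of -0.026 in DMSO and -0.14 in ATRA.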

How the data were processed

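RNA-seq counts of 6 NB4 libraries were used. The authors deposited 1 table per treatment, in which whole-number counts fill 2 columns for each library; these were taken as sequencing runs and summed. The authors' log2 fold change, p-value and adjusted p-value (knockdown against control) stand in the same deposited tables. Their test statistic (a score) and the normalized signal, deposited by the authors in 12 columns and as a mean per gene, were not used. The submitters' processing notes name bcl2fastq, STAR, Picard 2.5.0, DESeq2 and GRCh37.p13, per the labels; gene counting and strand are not given in the sources used here.

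Genes in both tables (12301) passed through filterByExpr and TMM scaling before edgeR 4.0.16 (R 4.3.3) fitted its quasi-likelihood model, with Benjamini-Hochberg adjustment over all genes. ATRA against DMSO and knockdown over both treatments came from an additive fit (3 residual degrees of freedom). Contrasts within a treatment and the interaction came from a fit of 4 groups (2 residual degrees of freedom, from the hairpin pairs), where each lone control borrows the spread of the knockdown pair. Hairpins were compared with treatment as a term. SE is the absolute log2 fold change over the square root of F. Scripts were tested on simulated data with the same dispersion for every gene, which does not measure the power of the fits in the real data. Alternatives were total counts, DESeq2 1.42.0, limma-voom (limma 3.58.1), no filter, single runs, a hairpin block and each library left out. The 42 genes and the pathway lists were chosen with earlier results of these data known. Every listed gene that a table holds is described; per pathway list, up to 2 genes per direction with the largest called ATRA change are named, apart from a gene that is not reported here.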

Additional observations from a re-analysis of the deposited data

How the results depend on the processing

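For ATRA against DMSO, the count of genes higher (11) ranged from 8 to 11 and the count lower (23) from 20 to 25 over all alternatives; leaving out each library gave 9 to 11 and 21 to 23. Of 600 values of single genes under these alternatives, 556 kept direction and side of the threshold, 31 lost the call and 5 gained it. These are not independent checks. The filter removed none of the 12301 genes in this fit, so the 40 values without it could not move. Leaving out either control library, like the fit in knockdown cells alone, estimates the ATRA response from the knockdown libraries only. MTHFD2 turned to -0.0079 with total counts, where only the scaling differs. For knockdown over both treatments, the count lower (0) was 1 with total counts, DESeq2 and run 2 only, each time ATF5. For knockdown in DMSO it was 1 with DESeq2 (ATF5), and for knockdown in ATRA 1 with DESeq2 and 1 with run 2 only (ATF5). The difference in ATRA response gave 1 lower with DESeq2 (PPP1R15A). Hairpin 2 against hairpin 1 gave 1 lower in place of 2 with total counts, DESeq2 and run 2 only (TRIB3). The cause of these shifts was not tested. Leaving out each library left the counts of the 3 knockdown comparisons and of the difference at 0 to 0; without a control library the knockdown contrast of that treatment and the difference cannot be estimated. Hairpin 2 against hairpin 1 uses no control library, and without a knockdown library it has no residual degree of freedom and no test. Over all 12301 genes, DESeq2 called 20 higher and 28 lower for knockdown over both treatments, where edgeR called 0.

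The labels give the same 2 hairpins in both treatments but do not say that the DMSO and ATRA libraries of a construct share a culture. Over 9467 genes averaging 10 CPM or more, deviations from the treatment mean correlated between DMSO and ATRA with r = 0.08 (control), 0.19 (hairpin 1) and 0.21 (hairpin 2), and the difference between the hairpins with r = 0.27. The block was kept as an alternative. In the fit of 4 groups it sets only the 2 hairpins apart, so the control's r has no bearing on it there. The r that bears on it is the 0.27 of the hairpin difference. A fit with a replicate block gave 1 lower for knockdown over both treatments and 1 in DMSO (both ATF5), 4 in ATRA (ATF5, PPP1R15A, SARS and TRIB3) and 2 for the difference in ATRA response (PPP1R15A and TRIB3). That fit removes the spread between hairpins. It left the ATRA counts at 10 higher and 23 lower.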

Other observations

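Known ATF4 and CHOP targets outside the list of 42 were also compared between knockdown and control in ATRA. Of 19 such genes 0 passed in edgeR's quasi-likelihood test, 8 had an unadjusted p under 0.05 (10.8% of all genes did), and the median log2 fold change was -0.18. In DMSO 0 passed, 4 had an unadjusted p under 0.05 (7.06% of all genes), and the median was -0.022. CEBPB, the C/EBP partner of ATF4, was 139, 102 and 90.1 CPM in the control, hairpin 1 and hairpin 2 libraries (-0.53, SE 0.10, adjusted p = 0.25). The others named here were chosen after their values were seen. STC2, a secreted stress glycoprotein, was 21.8, 13.4 and 11.4 CPM (-0.81, SE 0.13, adjusted p = 0.17), DDIT4, an MTORC1 inhibitor, was 40.8, 26.5 and 22.6 CPM (-0.73, SE 0.12, adjusted p = 0.17), and the growth factor VEGFA was 299, 214 and 185 CPM (-0.59, SE 0.09, adjusted p = 0.17). GDF15, a stress cytokine listed for ATRA only, was 48.6, 30.3 and 20.0 CPM (-0.95, SE 0.20, adjusted p = 0.25 within ATRA). In each of these the control was highest in ATRA. In DMSO the order differed between the genes: DDIT4 was 59.8, 89.2 and 79.2 CPM, with both hairpins above the control (0.49, SE 0.11, adjusted p = 0.45). VEGFA was 223, 224 and 215 CPM in DMSO (-0.022, SE 0.091, adjusted p = 0.97). CEBPB (-0.45, SE 0.12, adjusted p = 0.54) and STC2 (-0.26, SE 0.13, adjusted p = 0.72) were below the control with both hairpins there too. None of them passed in edgeR's quasi-likelihood test with TMM, both runs and no hairpin block, in a treatment where it was tested. The difference in ATRA response between knockdown and control was -1.22 (SE 0.16) for DDIT4, which had the lowest adjusted p among the 19. It was -0.56 for VEGFA, -0.55 for STC2 and -0.09 for CEBPB. These differences did not pass either.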
